A study of Mus musculus with 12 samples.

Results

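Respiratory complex I, the NADH:ubiquinone oxidoreductase of the inner mitochondrial membrane, was followed here through its nuclear transcripts in quadriceps muscle. Its members were all gene probes of the array whose gene name starts with Nduf, which gave 59 probes for 41 genes among 41174 gene probes with 30038 gene names. Of these, 56 probes passed the filter on dim signal (well above background on at least 6 of 12 arrays), among 22914 probes in all, and every one of the 41 genes kept at least 1 probe. The other 3 were second probes of Ndufv2, Ndufs4 and Ndufs5, above background on 2, 1 and 0 arrays. No tested member was saturated, and 1 value was missing, that of a Ndufa7 probe on 1 exercised array.

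The 12 arrays each held RNA of 1 male C57BL/6J mouse aged 13 weeks. In the exercised group, 6 mice had run on a motorised treadmill for 4 weeks and were sampled 3 hours after their last bout, and 6 sedentary mice had not trained. The effect of the last bout and that of the weeks of training are therefore not separated. Mice are named by set and animal as in the titles (s1m5 is animal 5 of set 1); what the sets stand for is not stated. There were 3 slides of 4 arrays: slide 1 carried 1 exercised mouse and 3 sedentary mice, slide 2 the reverse, and slide 3 had 2 of each. Probes above background numbered 22415 to 24858 on the exercised and 21708 to 25229 on the sedentary arrays. Defining transcripts of muscle fibres were present: all 8 markers on the fibre list were tested, and their summed level was 6554 to 8070 times the 75th percentile on exercised and 7571 to 8263 times on sedentary arrays. As the tissue was taken whole, fewer cells of a type and less RNA per cell cannot be told apart.

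Complex I takes electrons from NADH in its matrix arm, passes them along a chain of iron-sulfur clusters to ubiquinone, and uses the energy to pump protons through its membrane arm. A small core, shared with bacteria, does this work; the membrane part of that core is encoded by mitochondrial DNA, and the nuclear Nduf genes supply the matrix core, a large shell of accessory subunits and some of the assembly factors. In muscle, endurance training is known for raising mitochondrial content, and the coactivator PGC-1alpha, acting with NRF1, GABP, the estrogen-related receptors and YY1, is known to drive transcription of respiratory genes.

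Each probe is a 60-base oligonucleotide, and 16 of the 59 members span an exon junction in the array's annotation (genome build mm9). Overlapping probes show how far a member's values can be read, because they sample the same stretch of a transcript. The 3 probes of Ndufs6, a zinc-binding accessory subunit of the matrix arm, are given with the 33 bases common to all of them in capitals, and the overlapping pair of Ndufa12 with its 40 common bases in capitals.
Ndufs6 A_51_P335077 (chr13:73457817-73464875, minus strand): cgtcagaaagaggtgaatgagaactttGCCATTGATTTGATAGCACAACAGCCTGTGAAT
Ndufs6 A_51_P375034 (chr13:73457796-73457855, minus strand): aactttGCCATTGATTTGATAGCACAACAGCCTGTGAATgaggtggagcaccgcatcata
Ndufs6 A_52_P685828 (chr13:73457790-73457849, minus strand): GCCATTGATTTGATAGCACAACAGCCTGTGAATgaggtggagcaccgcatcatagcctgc
Ndufa12 A_51_P458538 (chr10:93662740-93666054, plus strand): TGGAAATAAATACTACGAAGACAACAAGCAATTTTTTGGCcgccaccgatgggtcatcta
Ndufa12 A_51_P458540 (chr10:93662720-93666034, plus strand): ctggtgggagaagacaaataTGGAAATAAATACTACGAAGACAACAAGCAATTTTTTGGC
Junction-crossing probes of core subunits are given for the following genes, whose values are described first below.
Ndufs8 A_51_P247441 (chr19:3911200-3911568, minus strand): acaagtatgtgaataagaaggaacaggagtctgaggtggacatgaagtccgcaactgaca
Ndufv1 A_51_P364339 (chr19:4007616-4007779, minus strand): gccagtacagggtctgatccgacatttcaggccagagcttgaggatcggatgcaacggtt
Ndufv2 A_51_P261470 (chr17:66438669-66438810, minus strand): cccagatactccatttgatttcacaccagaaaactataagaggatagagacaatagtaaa

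Promoter sequence, which the choice of members did not use, was searched for motifs of known regulators, with no test of the counts. RefSeq promoter sequence (GRCm38.p6, from 250 bases before to 50 bases after the start site) was matched for 37 of the 41 genes, as 39 promoters. On either strand, the palindromic NRF1 motif stood in 9 of them (23.1%, against 4.6% of all 32851 promoters), and the YY1 motif AAGATGGC in 7 (17.9% against 2.75%). The GABP motif CCGGAAG stood in 5 (12.8% against 8.86%), the estrogen-related receptor motif AAGGTCA in 3 (7.69% against 4.72%), the CREB motif TGACGTCA in 3 (7.69% against 1.79%) and the NF-Y motif CCAAT in 13 (33.3% against 37.4%). Any of the NRF1, GABP, estrogen-related receptor or YY1 motifs was found in 21 of 39 (53.8%, against 18.9%). These are counts of promoters, and overlapping promoters of Ndufa5 hold the same NRF1 site. That site is thus counted more than once in the 9 and in the 21. The searched motifs do not contain one another, though matches of NF-Y and others can share bases. The median GC content of the members' promoters was 59.3%, and 52.7% over all promoters. The 41 genes lie on 16 chromosomes, with at most 5 on any of them, chromosome 17.

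Windows of 175 bases, from 145 before to 30 after the start site, are given for 4 members that between them hold NRF1, GABP, estrogen-related receptor and YY1 motifs. Capitals mark NRF1 at Ndufs6, GABP and 3 NF-Y motifs at Ndufs8, NRF1 and the estrogen-related receptor at Ndufb4, and YY1 at Ndufc1. A match is a description of letters, not a bound site.
Ndufs6 (chr13:73328453-73328627, minus strand): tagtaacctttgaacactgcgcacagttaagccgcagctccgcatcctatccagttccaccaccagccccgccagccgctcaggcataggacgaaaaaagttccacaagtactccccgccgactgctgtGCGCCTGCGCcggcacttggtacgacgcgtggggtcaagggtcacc
Ndufs8 (chr19:3912745-3912919, minus strand): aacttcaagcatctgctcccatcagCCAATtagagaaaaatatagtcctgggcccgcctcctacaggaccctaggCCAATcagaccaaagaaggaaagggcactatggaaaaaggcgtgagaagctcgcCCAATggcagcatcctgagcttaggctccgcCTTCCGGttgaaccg
Ndufb4 (chr16:37654339-37654513, minus strand): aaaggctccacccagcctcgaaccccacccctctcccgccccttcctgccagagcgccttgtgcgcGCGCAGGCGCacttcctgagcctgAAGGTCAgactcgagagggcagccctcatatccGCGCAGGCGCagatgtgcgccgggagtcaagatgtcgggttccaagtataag
Ndufc1 (chr3:51408926-51409100, minus strand): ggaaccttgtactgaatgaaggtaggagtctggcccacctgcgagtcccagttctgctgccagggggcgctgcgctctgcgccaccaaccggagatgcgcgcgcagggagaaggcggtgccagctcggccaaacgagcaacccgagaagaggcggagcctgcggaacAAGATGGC

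Complex I transcripts did not differ detectably between exercised and sedentary muscle. Of the 56 tested probes, 0 were called higher and 0 lower (limma with Benjamini-Hochberg adjustment over all 22914 probes, adjusted p below 0.05), where 3.31% of all probes were called (1.81% higher, 1.51% lower). At an unadjusted p below 0.05 the count was also 0 of 56, against 15.7% of all probes. Exercised and sedentary arrays overlapped for every tested member, and the groups did not overlap for 2.89% of all probes. For 56 members, a count of 0 is close to that share and to the 3.31% called. The smallest adjusted p among the members was 0.38, for a probe of Ndufab1.

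The differences were small as well as not called. Their median was 0.0099 on the log2 scale (exercised minus sedentary), with -0.02 over all probes, and they ran from -0.18 (Ndufb7) to 0.21 (Ndufab1). The median absolute difference was 0.034 among members and 0.11 over all probes. The 95% interval lay within 1.5-fold either way for 56 of 56 members, against 77.2% of all probes (76.5% with slide as a block, again with 56 of 56 members). A training difference of 1.5-fold or more in any tested probe thus lay outside its interval in this fit, and the median half-width of the interval was 0.19 (log2). Signs were mixed, with 33 probes above 0 and 23 below. With the brightest probe of each gene alone, 23 genes were above 0 and 18 below, with a median of 0.00062.

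**Figure D1:**
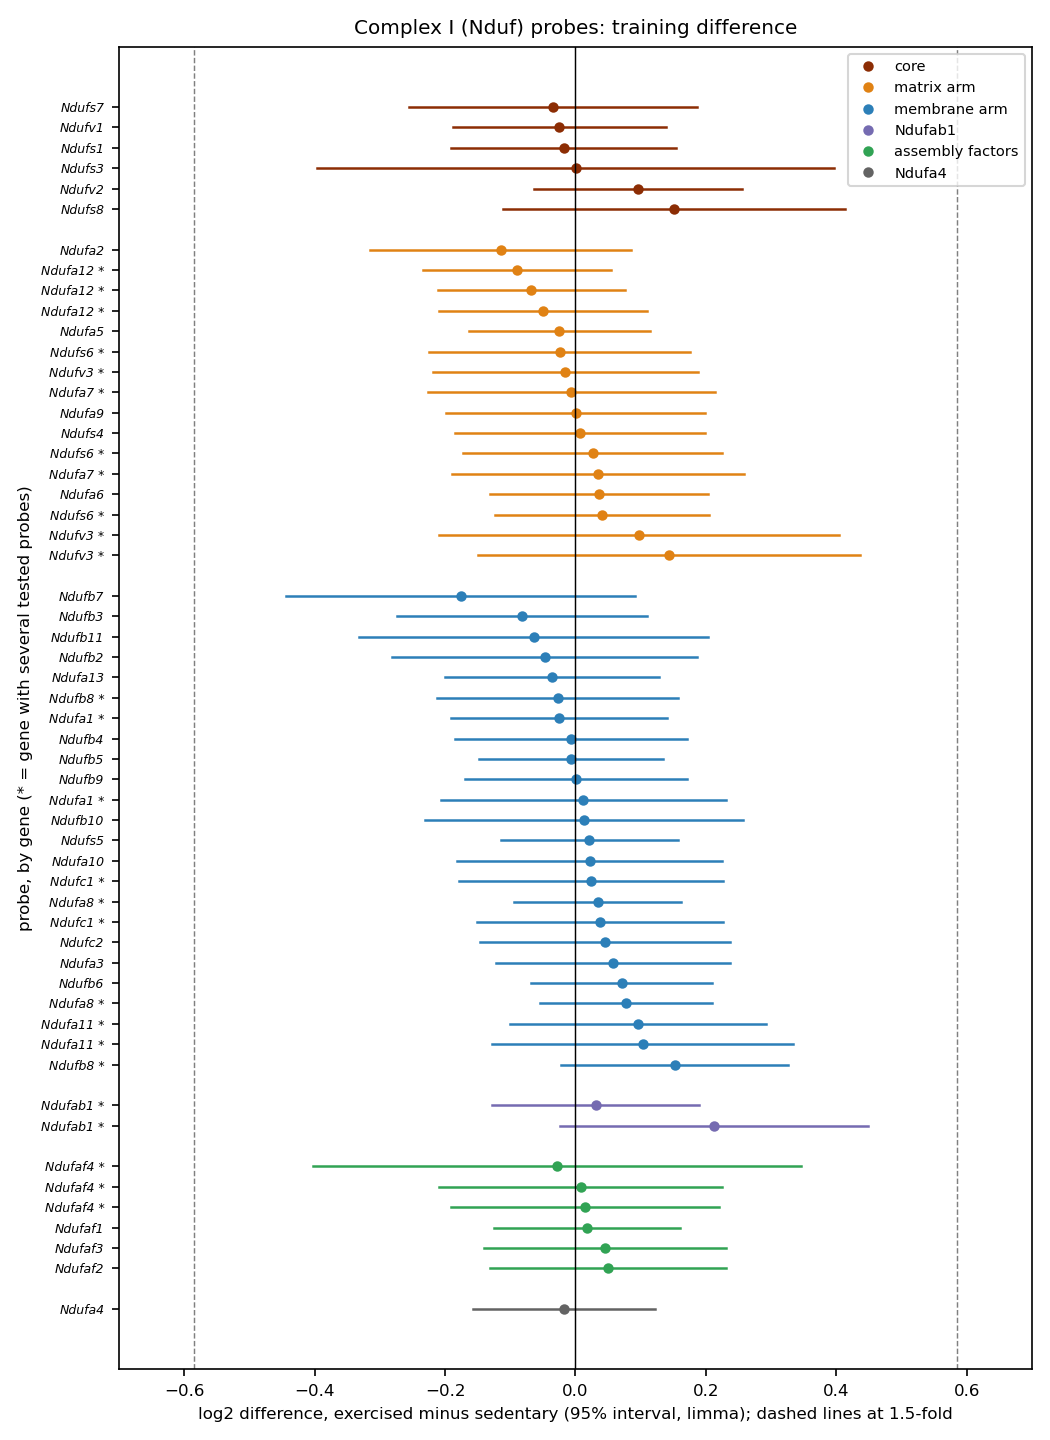
Log2 difference between exercised and sedentary quadriceps for 55 tested Nduf probes (points) with its 95% limma interval (lines), grouped by place in the complex; dashed lines mark 1.5-fold. Every interval crosses 0 and none reaches 1.5-fold.

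The 7 core subunits of the matrix arm, which carry the flavin and the iron-sulfur clusters, had 3 differences above 0 and 4 below. Levels are given as log2 relative to each array's 75th percentile, as lowest, median and highest of 6 arrays. Ndufv1, which binds the flavin that accepts electrons from NADH, lay at 7.49, 7.69 and 7.89 in exercised and 7.61, 7.70 and 7.77 in sedentary muscle. Its group means were 7.67 ± 0.15 and 7.69 ± 0.063 (SD), a difference of -0.024 (95% interval -0.19 to 0.14, adjusted p = 0.921, limma). The sedentary arrays thus lay inside the range of the exercised ones. Ndufv2, which carries an iron-sulfur cluster beside the flavin, lay at 5.41, 5.53 and 5.75 in exercised and 5.35, 5.49 and 5.51 in sedentary muscle, a difference of 0.096 (-0.063 to 0.25, adjusted p = 0.598). Ndufs1, the largest subunit, was at 6.85, 7.09 and 7.26 against 7.02, 7.04 and 7.20, a difference of -0.018 (-0.19 to 0.15, adjusted p = 0.949). Both groups of each gene overlapped.

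The groups of the other core subunits overlapped as well. Ndufs7, which holds the last iron-sulfur cluster before ubiquinone, was at 7.26, 7.62 and 7.73 against 7.38, 7.53 and 7.78, a difference of -0.034 (-0.25 to 0.19). For Ndufs3, a core subunit without a cofactor, the values were 6.04, 6.66 and 6.84 in exercised and 5.90, 6.77 and 6.96 in sedentary muscle. Its lowest value in each group came from exercised s2m4 and sedentary s1m1, and sedentary s2m4 was the next lowest sedentary array at 6.40. The Ndufs3 interval was the widest of all members (-0.40 to 0.40 around 0.00016). Without exercised s2m4 the Ndufs3 difference was 0.11, and without sedentary s1m1 it was -0.14; neither was called. Ndufs8, another iron-sulfur subunit, was at 3.32, 3.51 and 3.86 in exercised and 3.15, 3.36 and 3.71 in sedentary muscle. Its difference of 0.15 (-0.11 to 0.41, adjusted p = 0.618) was the highest of the core, and it became 0.30 (0.12 to 0.49, adjusted p = 0.112, limma) when slide was added as a block, the smallest adjusted p that any member reached in any of the 34 settings tried.

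**Figure D2:**
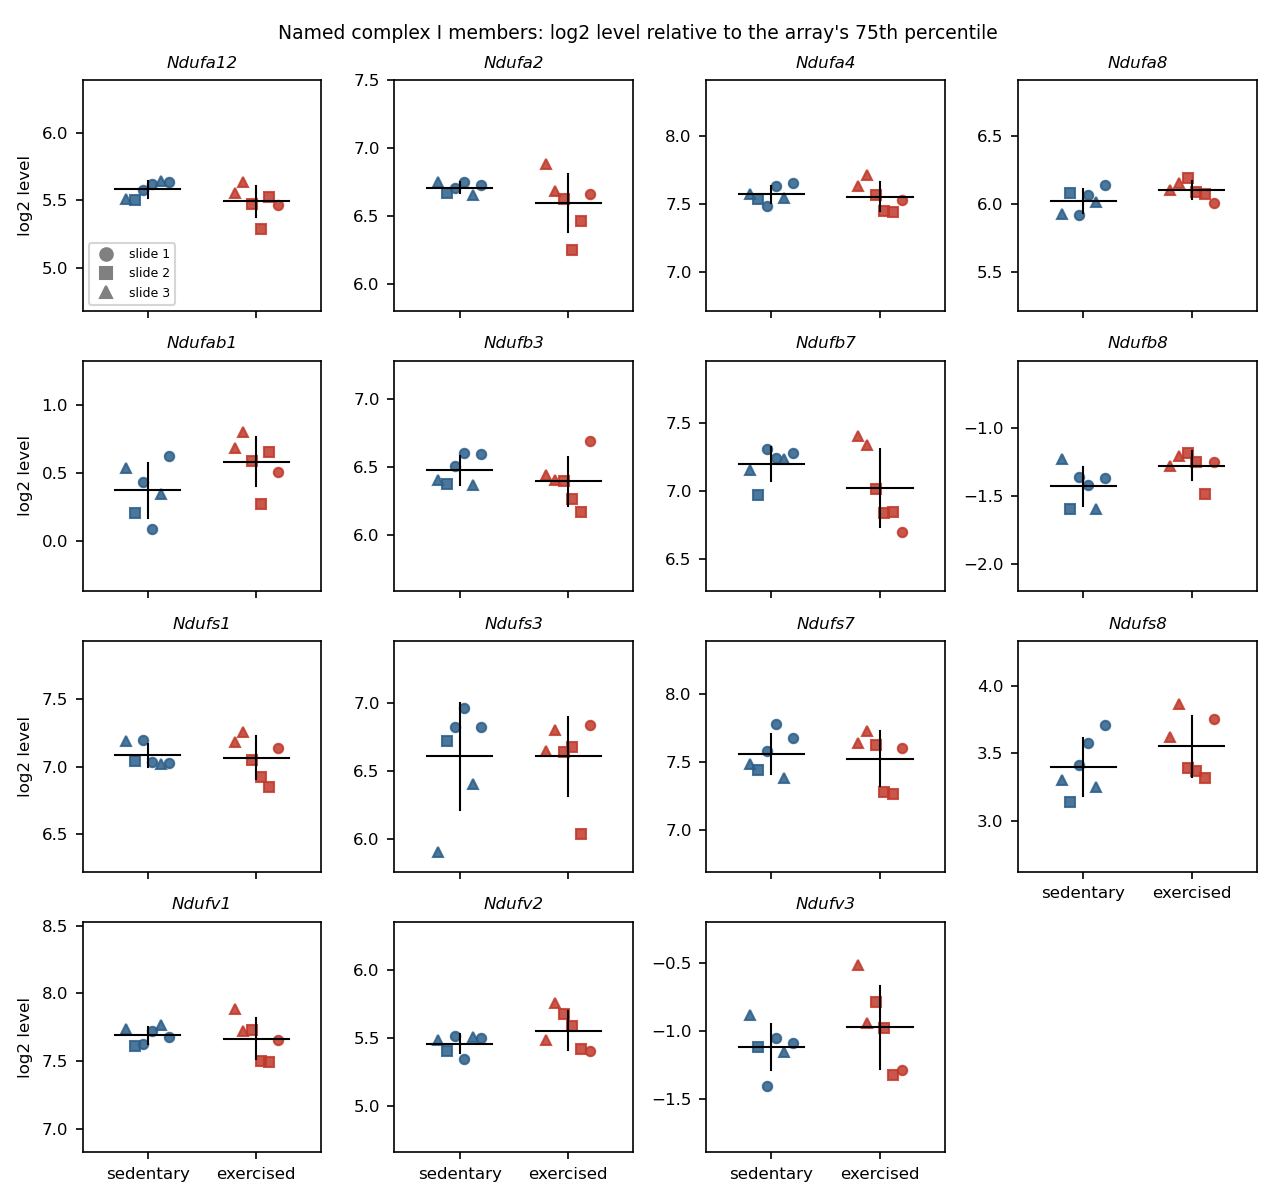
Log2 level of 15 named complex I probes on each array, by group (blue sedentary, red exercised) and slide (marker shape), with mean and SD of 6 arrays; every panel spans the same range of log2 units. In every panel the 2 groups overlap, and exercised s2m4 stands apart as the low exercised array of Ndufs3.

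The accessory subunits of the matrix arm (16 tested probes, 9 genes) had 8 differences above 0 and 8 below, from -0.11 to 0.14. Ndufa2, a small subunit with a thioredoxin-like fold, gave the lowest, -0.11 (-0.31 to 0.085, adjusted p = 0.62). It was at 6.25, 6.65 and 6.88 in exercised and 6.66, 6.72 and 6.75 in sedentary muscle. The sedentary values were tightly grouped, with an SD of 0.041, and the 3 exercised arrays of slide 2 lay below all of them. Ndufa12, which takes the place of the assembly factor Ndufaf2 late in assembly, was at 5.29, 5.50 and 5.64 in exercised and 5.51, 5.60 and 5.64 in sedentary muscle by its first printed probe, a difference of -0.089 (-0.23 to 0.054, adjusted p = 0.584). Its other probes gave -0.068 and -0.05, so that 3 of 3 probes had the same sign and none was called. Ndufv3, a small subunit at the flavin end whose transcript is spliced into a short and a long form, was read by 3 probes. The probe with the largest difference, the dimmest, gave -1.33, -0.96 and -0.52 in exercised against -1.40, -1.11 and -0.89 in sedentary muscle. Its difference was 0.14 (-0.15 to 0.44), and the other probes gave 0.097 and -0.015. The last value is from the brightest probe, with means of 5.304 in exercised and 5.319 in sedentary muscle.

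In the membrane arm (24 tested probes, 19 genes), 15 differences were above 0 and 9 below, with a median of 0.017. Ndufb7, a subunit on the intermembrane side, had the largest negative value of all members, -0.18 (-0.44 to 0.091, adjusted p = 0.558). Its exercised arrays read 7.41 and 7.34 for s1m1 and s1m5, and 7.01, 6.83, 6.84 and 6.70 for s2m1, s2m3, s2m4 and s2m5. Its sedentary arrays read 7.15, 6.97 and 7.31 for s1m1, s1m5 and s1m6, and 7.24, 7.24 and 7.28 for s2m2, s2m4 and s2m5. The exercised mice of set 1 were thus above every sedentary mouse and 3 of the 4 of set 2 below all of them, a split taken up with the sets below. Ndufb3 was at 6.17, 6.40 and 6.69 in exercised and 6.37, 6.46 and 6.60 in sedentary muscle, a difference of -0.082 (-0.27 to 0.11). Ndufa8, which also faces the intermembrane space, was at 6.01, 6.10 and 6.19 against 5.92, 6.04 and 6.14, a difference of 0.078 (-0.054 to 0.21).

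Probes named for Ndufb8, often used on blots as a marker of the assembled complex, did not give the same value. By transcript record, the brighter one was matched to the current Ndufb8 gene and the dimmer one to no current gene. The dimmer one gave -1.49, -1.25 and -1.19 in exercised and -1.60, -1.40 and -1.23 in sedentary muscle. Its difference was 0.15 (-0.022 to 0.33, adjusted p = 0.398, limma). The brighter one, with means of 8.277 in exercised and 8.305 in sedentary muscle, gave -0.027 (-0.21 to 0.16). Ndufab1, the mitochondrial acyl carrier protein, sits in both arms and also serves lipoic acid synthesis. Its probes did not give the same value either. The dimmer Ndufab1 probe was at 0.27, 0.62 and 0.80 in exercised and 0.089, 0.39 and 0.62 in sedentary muscle. Its difference was 0.21 (-0.023 to 0.45), or 1.16-fold. The brighter Ndufab1 probe, with means of 5.895 in exercised and 5.863 in sedentary muscle, gave 0.031 (-0.13 to 0.19). For Ndufab1 and Ndufb8, which had the largest positive differences, the other probe under the same gene name thus lay near 0. Ndufs8, the next, has a single probe.

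Assembly factors named Nduf (6 tested probes, 4 genes) had 5 differences above 0 and 1 below, all between -0.028 and 0.05. They are Ndufaf1, which acts on a membrane-arm intermediate, Ndufaf2, a late-acting chaperone, and Ndufaf3 and Ndufaf4, which act together on an early matrix intermediate. By their present names, Ndufaf5, Ndufaf6 and Ndufaf7 were on the array under older names; their probes, which the Nduf rule does not take in, differed by 0.0058, -0.058, and -0.066 and 0.0069. Ndufa4, first placed in complex I and now counted as a subunit of cytochrome c oxidase, was at 7.44, 7.55 and 7.71 in exercised and 7.48, 7.56 and 7.65 in sedentary muscle. Its difference was -0.017 (-0.16 to 0.12, adjusted p = 0.938). ND4, the only mitochondrially encoded subunit found by name with a tested probe, differed by -0.082 (-0.22 to 0.059).

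Repeat probes gauge the measurement itself. For 11 genes with several tested probes, the difference between groups varied among probes of 1 gene by a median of 0.043 and at most 0.18, and in 6 of the 11 the probes had opposite signs. Across the 12 arrays, the 6 pairs of overlapping probes, the printed Ndufs6 and Ndufa12 probes among them, correlated with a median Pearson r of 0.798. Their r ran from 0.359, for the Ndufa8 pair, to 0.874. The 13 pairs that share no base had a median r of 0.392, from -0.112 to 0.918. The 2 printed Ndufs6 probes that share 54 bases had r = 0.87, and their difference had an SD of 0.076 between arrays. For Ndufv3, 2 of its probes followed each other (r = 0.918) but not the remaining probe (r = 0.174 and 0.132). These r values rest on 12 arrays that share 1 scaling, and they are descriptions.

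The Nduf probes moved together from array to array more than they did with training. The mean deviation of the 56 probes from their own 12-array means averaged 0.0071 over the 6 exercised arrays with an SD of 0.13, and -0.0071 over the 6 sedentary ones with an SD of 0.067. It was highest on exercised s1m5 (0.15) and s1m1 (0.13), both on slide 3, and lowest on exercised s2m3 (-0.16), exercised s2m4 (-0.13) and sedentary s1m5 (-0.12), all on slide 2. Under this scaling the exercised arrays thus held both the highest and the lowest values; after quantile normalization both extremes were sedentary (s1m5 at -0.078 and s2m5 at 0.086). The SD was larger among exercised than sedentary arrays for 44 of 56 members (78.6%), against 54.9% of all probes, a description with no test of the list. That order was not kept by the array means after quantile normalization, whose SD was 0.0512 in exercised and 0.0609 in sedentary muscle. With group means removed, the median r over 1540 pairs of members was 0.52, and each member correlated with the mean of the others at a median of 0.742, a level that 3.08% of other probes reached.

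The size of this joint movement changed with the scaling of the arrays. The mean deviation correlated across the 12 arrays with the gap between an array's 95th and 75th percentiles (r = 0.845, both measures taken from the same scaled signal). After quantile normalization, the array means ran from -0.078 to 0.086 in place of -0.16 to 0.15, the median r between members was 0.226 in place of 0.52, and 11.8% of other probes reached the median correlation of a member with the rest. With the array median as the scale, the pair correlation was 0.789. The probes closest to the mean of the members under the 75th percentile, with group means removed, were those of Mon1a (r = 0.951), Bach1 (0.946), Serinc4 (0.94), Cox4i1 (0.934) and Smarca4 (0.934). For Ndufs1 they were Sarnp (0.938), Atp5k (0.929), Urm1 (0.911), Dcaf7 (0.91) and Uqcr11 (0.905). Of these 10, Cox4i1, Atp5k and Uqcr11 are themselves respiratory chain or ATP synthase genes, and none was called different between the groups.

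**Figure D3:**
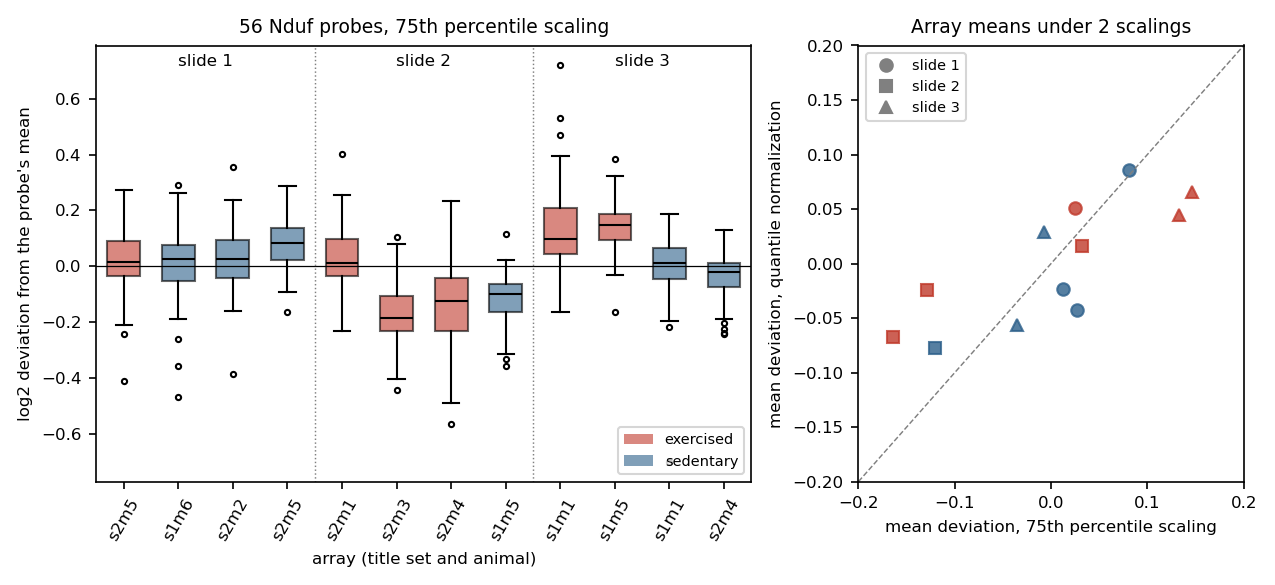
Left, log2 deviation of the 56 Nduf probes from each probe's mean on every array, by slide (boxes: quartiles and median; whiskers to 1.5 times the quartile range; points beyond). Right, the mean deviation of each array under 75th percentile scaling against quantile normalization, with the line of equality; the arrays span -0.16 to 0.15 on the horizontal axis and -0.078 to 0.086 on the vertical one.

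Within slides the differences were not alike, though 0 members were called on any of them (limma; 0% of all probes on slides 1 and 3 and 0.0437% on slide 2). At an unadjusted p below 0.05 there were 1, 0 and 2 members on slides 1, 2 and 3 (1.82%, 0% and 3.57%, against 6.03%, 5.89% and 12.8% of all probes). The median difference of the members was -0.014 on slide 1, 0.024 on slide 2 and 0.17 on slide 3, where the medians of all probes were -0.033, 0.0047 and 0.0056. On slide 3, 53 of 56 members were above 0 (51% of all probes), on slide 2 35 of 56 (51%) and on slide 1 23 of 55 (43.2%). All 3 slides were above 0 for 14 of 55 members (25.5%, against 17%), Ndufs8 and both Ndufab1 probes among them. With slide as a block, 49 of 56 members were above 0 (47.8% of all probes) with a median of 0.066, 0 were called (1.93% of all probes), and 4 had an unadjusted p below 0.05, all higher (7.14%, against 6.49% of all probes higher). Those were probes of Ndufs8, Ndufb8, Ndufa11 and Ndufaf3. The difference between slides was itself tested as an interaction: 0 of 55 members passed (adjusted p from 0.614, limma; 0.118% of all probes), and 1 of 55 had an unadjusted p below 0.05 against 5.2%. The Ndufa7 probe with the missing array could not be fitted there.

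The slide 3 shift depended on the scaling. After quantile normalization the slide medians were 0.058, 0.04 and 0.066, with 35 of 56 members above 0 on slide 3, and with the 95th percentile as the scale they were 0.024, -0.0051 and 0.073. Scaling by the array median instead raised the slide 3 median to 0.29, with 56 of 56 members above 0, and background subtraction with a floor gave 0.14, with 48 of 56. The core subunits had the highest slide 3 median of the larger groups, 0.25 with 7 of 7 above 0, to which Ndufs3 contributed 0.57 and Ndufs8 0.46. Both sedentary arrays of slide 3, s1m1 and s2m4, had the lowest sedentary Ndufs3 values, 5.90 and 6.40. The other sedentary arrays read 6.72 to 6.96.

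**Figure D4:**
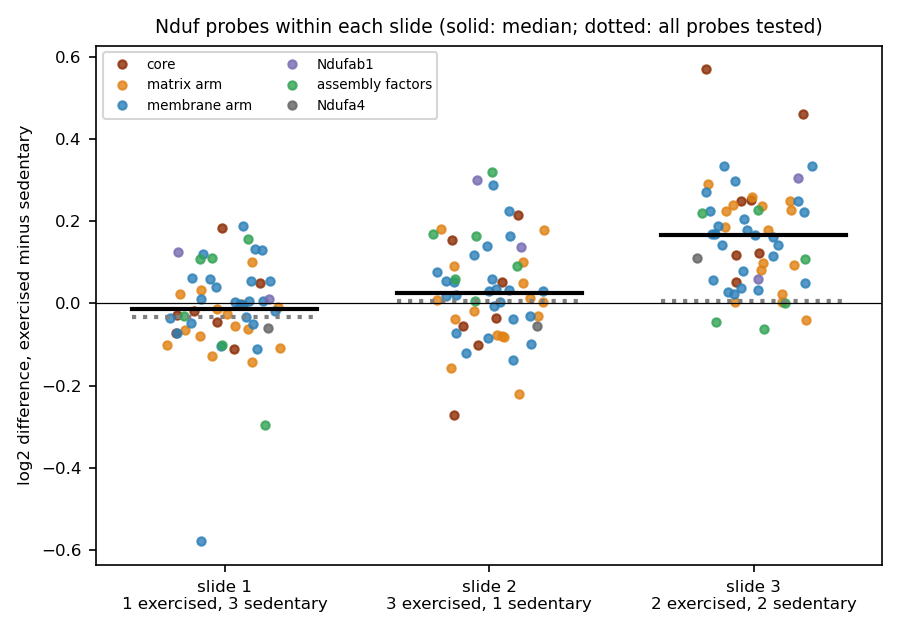
Log2 difference of each Nduf probe within each slide, coloured by place in the complex, with the median of the members (solid line) and of all probes tested (dotted line). The members' median is -0.014, 0.024 and 0.17 on slides 1, 2 and 3; each point rests on 4 arrays.

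The sets of the titles split the exercised mice in the same way. In set 1 the mean deviation was 0.14 in 2 exercised and -0.038 in 3 sedentary mice, and in set 2 it was -0.059 in 4 exercised and 0.024 in 3 sedentary mice. The training difference in set 2 minus that in set 1 had a median of -0.26 over the members and -0.05 over all probes. By the interaction term in limma, 0 of 56 members passed (smallest adjusted p = 0.568; 0% of all probes passed), and 11 of 56 had an unadjusted p below 0.05 (19.6%, against 8.43%), with Ndufb7 the largest at -0.63. After quantile normalization the median was -0.063 and 1 of 56 had an unadjusted p below 0.05 (1.79%, against 6.75% of all probes), whereas scaling by the array median gave -0.47 and 33 of 56 (58.9%, against 19.4%). Both exercised mice of set 1 were on slide 3, so that set and slide cannot be told apart for them.

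Regulators of respiratory genes, by contrast, included called changes in the same fit. Of 13 tested, 2 rose and 0 fell. Ppargc1a, which encodes PGC-1alpha, lay at 3.14, 3.46 and 4.37 in exercised and 1.41, 1.73 and 2.02 in sedentary muscle, a rise of 3.68-fold (95% interval 2.70 to 5.03, adjusted p = 0.00038, limma). Its groups did not overlap. Ppara, a nuclear receptor for fatty acid oxidation, lay at 0.62, 0.90 and 1.39 against -0.78, -0.26 and 0.17 and rose 2.24-fold (1.75 to 2.86, adjusted p = 0.0021). Adding slide as a block to the fit kept both calls (adjusted p = 0.00063 and 0.0148). The other 11 were not called; the related coactivator Ppargc1b differed by -0.31 (-0.57 to -0.056, adjusted p = 0.203).

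Of 10 genes of NADH shuttles and NAD enzymes, 1 rose: Got1, the cytosolic aspartate aminotransferase of the malate-aspartate shuttle, lay at 6.58, 6.64 and 6.79 in exercised and 6.21, 6.26 and 6.53 in sedentary muscle, 1.28-fold higher (1.15 to 1.42, adjusted p = 0.0146; blocked by slide, 0.0373). Of 10 genes for other routes into the quinone pool, such as succinate dehydrogenase, 0 were called, with differences of -0.14 to 1.04, the highest for choline dehydrogenase, Chdh (-0.071 to 2.15, above background on 7 arrays). Of 11 complex I assembly factors not named Nduf, 0 were called, with a median of 0.0083. Their mean level followed that of the Nduf probes across arrays (r = 0.859). That r was taken under 75th percentile scaling only, and the joint movement of the Nduf probes changed with the scaling.

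**Figure D5:**
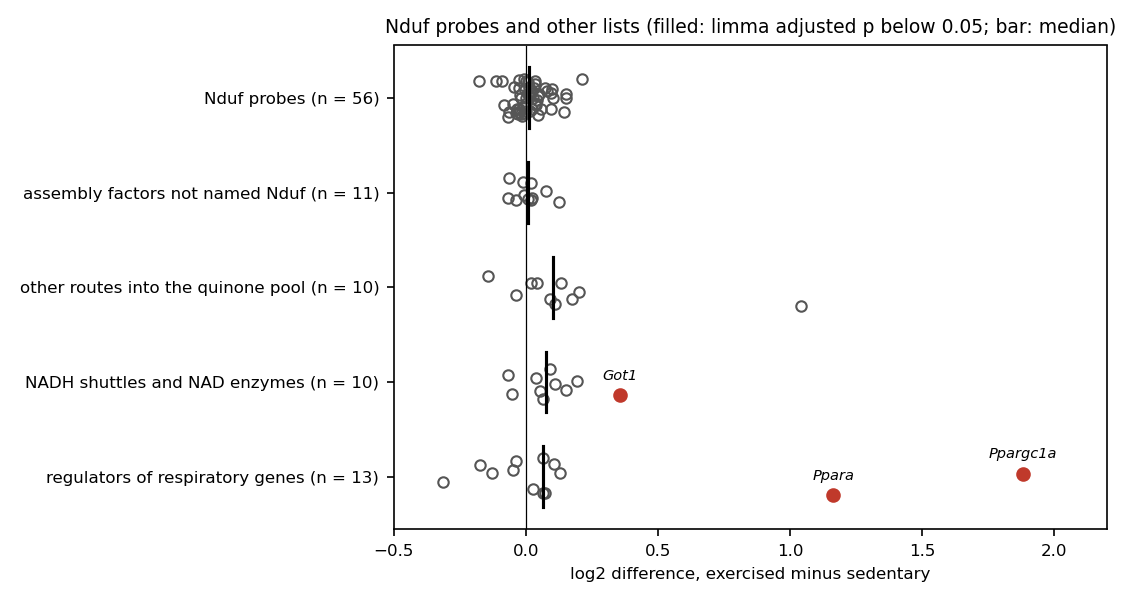
Log2 difference between exercised and sedentary muscle for the 56 Nduf probes and the tested genes of 4 other lists; filled points are called by limma (adjusted p below 0.05), and vertical bars are medians. The Nduf probes lie between -0.18 and 0.21, while Ppargc1a and Ppara lie above 1.

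Markers of other cells were read beside these values. The summed level of the brown adipocyte list ranged from 5.43 to 52.7 times the 75th percentile in exercised and from 2.01 to 25.8 in sedentary arrays; 3 of its 4 genes were tested, 0 were called, and Elovl3 was above background on 0 arrays. Ucp1, the uncoupling protein of brown fat, was above background on 7 arrays and differed by 20.4-fold (1.87 to 221.8, adjusted p = 0.185, limma), and Cidea by 3.46-fold (1.11 to 10.8, adjusted p = 0.264). Dio2, the remaining tested gene of that list, differed by 1.13-fold (0.81 to 1.59, adjusted p = 0.779, limma). Of 7 tendon markers 0 were called, with a median difference of 0.91. The tendon list's summed level was 62.3 to 151.9 in exercised and 27.4 to 81.1 in sedentary arrays. Fmod differed by 1.89-fold (1.22 to 2.94, adjusted p = 0.127, limma) and Tnmd by 2.16-fold (1.22 to 3.83, adjusted p = 0.158). Of the tested white adipocyte (6), macrophage (4) and erythroid (3) markers 0 were called. The correlation of the brown adipocyte list with the Nduf mean across the 12 arrays was 0.441, that of the muscle fibre list 0.627, that of the slow fibre list -0.238 and that of the tendon list -0.257. These r values were also taken under 75th percentile scaling only. Of the 5 endothelial markers 1 fell, Kdr (0.585-fold, adjusted p = 0.007). The part of these cells in the Nduf, Ppargc1a and Ppara values was not tested.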

How the data were processed

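Quadriceps RNA of 12 mice was hybridised to one-colour Agilent arrays. The deposited scanner files hold spot intensity, background-subtracted by the authors' Feature Extraction (10.5.1.1 per the file headers, 9.1 per the submitters' processing notes) and not scaled between arrays. The deposited value table holds the same values, within 0.1% for 100% of 40929 single-spot probes, and was used only as an alternative. Control and outlier-marked spots were left out, spots of a probe averaged, and each array's 75th percentile of log2 intensity subtracted. Probes above background on at least 6 arrays were compared with limma 3.58.1 (R 4.3.3), without a block, and adjusted by Benjamini-Hochberg; the code was tested on simulated data. P-values rest on the spread between mice, each read on its own array, so that differences between arrays and slides are part of that spread. Positions are those of the array annotation (mm9).

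Named were the 8 members with the smallest p, the 4 largest differences in each direction among members above background throughout a group, non-overlapping members, Ndufa4, Ndufa4l2 (no probe under that name) and the core subunits; from other lists, at most the 3 smallest p; and the 5 other probes with the highest correlation with Ndufs1 and with the members' mean. The members and lists were chosen with earlier results of these data known. Alternatives were other scalings, background corrections, filters, variance models, thresholds, slide or title set as a block, values within slides and each array left out. Plain background subtraction and 95th percentile scaling were added after seeing the data. The number of arrays limits the precision. The values of 1 tested member are not reported here singly; it remains in the counts.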

Additional observations from a re-analysis of the deposited data

Results flagged for a closer look

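Within the 6 exercised arrays, exercised s2m4 lay apart on the low side for 2 of the named probes. For Ndufs3 it read 6.04 where the next array read 6.64, a gap of 0.746 of the group's range. For the Ndufb8 probe with the larger difference it read -1.49 where the next read -1.28, a gap of 0.695 of the range; both gaps exceed the 95% critical value of Dixon's test for 6 arrays. Of 32 groups examined in this way 2 were found, and about 1 in 20 such groups passes by chance. Without exercised s2m4, the difference between exercised and sedentary was 0.11 for Ndufs3 and 0.19 for Ndufb8, neither of them called (limma, adjusted p = 0.829 and 0.248).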

How the results depend on the processing

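No Nduf probe was called in any of the 34 settings (limma, smallest adjusted p = 0.112, with slide as a block). The count over all probes, 759, became 0 with normexp, 394 with no filter, 443 with slide as a fixed block, 0, 10 and 0 within slides 1, 2 and 3, 34 with the replicate block and 1281 at an adjusted p below 0.10, and lay between 520 and 707 with an array left out. The Nduf median of 0.0099 became 0.26 with normexp and 0.17 within slide 3, and ran from -0.017 to 0.042 with an array left out; it was below 0 without exercised s1m1, exercised s1m5 or sedentary s1m5. The normexp fit collapsed on some arrays, with array means from -2.40 to 0.768 and a median r between members of 0.986. Plain background subtraction was added for this reason, and the normexp values are given only for completeness. With an array left out, the interactions with set and with slide gave 0 calls each (0 to 0); the slide interaction could not be fitted without exercised s2m5 or sedentary s1m5. The titles do not state whether same-numbered mice of the groups are pairs. Deviations of same-numbered mice correlated at 0.141, -0.177, 0.0889 and 0.242. Differently numbered mice were not compared in this way, so these values cannot decide it. With the replicate block 0 Nduf probes were called, with a median of 0.055. That fit used only the mice whose number occurs in both groups (s1m1, s1m5, s2m4 and s2m5). Its counts and median thus reflect fewer mice as well as the block.

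Signs of single members, none of them called, turned as follows, and the cause was not tested. Quantile normalization gave Ndufa4 0.016, Ndufs1 0.0032 and Ndufv1 0.00079. Normexp, whose fit collapsed on some arrays, gave Ndufa12 0.23, Ndufa2 0.17, Ndufa4 0.26, Ndufb3 0.22, Ndufb7 0.0698, Ndufs1 0.26, Ndufs7 0.25 and Ndufv1 0.26. Ndufs3 became -0.0021 with median scaling, -0.0024 in the deposited table, -0.0022 with outlier marks kept, -0.018 with 95th percentile scaling and -0.0078 with title set as a block, which gave Ndufs1 0.011. Array weights gave Ndufs1 0.0076. Slide as a fixed block gave Ndufa4 0.0096, Ndufb3 0.021, Ndufs1 0.032, Ndufs7 0.062 and Ndufv1 0.0047. Slide 1 gave Ndufa8 -0.033, Ndufb3 0.12, Ndufs1 0.04996, Ndufs3 -0.029, Ndufv2 -0.045 and Ndufv3 -0.11. Slide 2 gave Ndufs3 -0.27. Slide 3 gave Ndufa12 0.023, Ndufa2 0.0804, Ndufa4 0.11, Ndufb3 0.037, Ndufb7 0.18, Ndufs1 0.12, Ndufs7 0.25 and Ndufv1 0.053. The replicate block gave Ndufs1 0.039 and Ndufs7 0.062. Background subtraction with a floor gave Ndufa4 0.028, Ndufs7 0.0076 and Ndufv1 0.032. With an array left out, Ndufa4 ran from -0.049 to 0.0061, Ndufs1 from -0.056 to 0.026, Ndufs3 from -0.14 to 0.11, Ndufs7 from -0.075 to 0.018 and Ndufv1 from -0.069 to 0.0104.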
